A study of Mus musculus with 8 samples.

Results

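The genes described here encode the plasma proteins of complement and of blood coagulation, most of them secreted by the liver. The list holds 41 genes. A listed gene was taken as a member where the authors' table carried at least 1 non-control probe with its current or an older symbol, which found 33 genes on 45 probes, and spots with an outlier flag were kept and are counted below. Of these 33, 19 belong to complement and 14 to coagulation and fibrinolysis. The other 8 listed genes (Mbl2, Cfi, F5, F12, F13b, Fgb, Proc and Serpinf2) have no symbol in that table and are given apart. The series compared whole liver of mice labelled as male, on the C57BL/6J background, that were fed a high-fat diet for 3 months: 4 wild-type samples (WT) and 4 samples labelled miR-223KO, which lack microRNA-223. Both groups had the diet, so there is no group on another diet to set them against. Each liver RNA was labelled with Cy5 and hybridised to its own 2-colour Agilent array together with a Cy3-labelled reference RNA, labelled as an assorted mouse total RNA of mixed tissue. The labels name no tissue-restricted deletion. They also leave unsaid whether the 8 samples are 8 animals, so the p-values speak of these samples and their spread may be technical.

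Complement is a cascade of proteases that tags surfaces for uptake and can end in a pore in the target membrane. It starts through C1q (classical pathway), through mannose-binding lectins and their serine proteases (lectin pathway) or through C3 itself with factors B and D (alternative pathway), and all routes meet at C3. Coagulation is a second protease cascade, which ends when thrombin cuts fibrinogen into fibrin, and plasmin later dissolves that fibrin. Hepatocytes make most of these proteins, whereas C1q comes mainly from macrophages, and factor D is best known as a product of fat cells. miR-223 is a microRNA abundant in neutrophils and other myeloid cells, and microRNAs of its kind pair through bases 2 to 8, the seed, with messenger RNAs.

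The mature miR-223-3p is shown first because its absence defines the knockout group. It is given from RefSeq (GRCm38.p6, chrX:96242884-96242905, plus strand), with the seed in capitals.
mmu-miR-223-3p: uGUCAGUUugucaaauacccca
The complement of that seed, AACTGAC on the sense strand, was searched in the 60-base probes of the array, which show only a short stretch of each transcript. It stood in 150 of the 40554 probes with a sequence in the authors' table (0.37%). Among the 45 member probes it stood in 2, which belong to C3 and to Plg, the gene of plasminogen. The 30 bases around each match are printed with the match in capitals.
C3 probe A_51_P110301, bases 24 to 53: atggttgtcccAACTGACtacagcccagcc
Plg probe A_52_P662013, bases 12 to 41: gtgtttggaaaAACTGACagtaatcaaact
A match describes the probe alone, and whether miR-223 binds there was not tested. A transcript without one in its probe may hold one elsewhere. The C3 probe stood higher in miR-223KO by 0.17 and the Plg probe lower by -0.39 on the log2 scale, and neither difference passed the test (unadjusted p of 0.371 and 0.104 in limma).

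All values below are log2 ratios of Cy5 over Cy3, normalised by loess within each array, and a difference is the mean of miR-223KO minus that of WT on that scale. Each gene is given by its brightest probe, and 17782 genes and unnamed probes were tested. The 8 arrays lay on 2 slides, with replicates 1 and 2 of both groups on slide 1 and replicates 3 and 4 on slide 2. Of the spots that were not controls, 49.5% to 69.8% were well above background in Cy5. All 33 members were well above background on all 8 arrays, as were the 10 hepatocyte markers tested, Alb among them. The reference was bright for the same genes: 43 or 44 of the 45 member probes and all 10 hepatocyte markers were well above background in Cy3 on every array, and Cy5 and Cy3 signals over all probes correlated at a Pearson r of 0.955 to 0.978 within an array. In the deposited log ratios, put on the log2 scale, the median over the member probes lay between -0.27 and 0 on each array, with single probes from -1.69 to 1.39. A difference in a ratio can come from either channel. Outlier flags fell often on these genes: 25 of the 33 (75.8%) had at least 1 flagged spot, against 19.9% of all tested, and 2.22% (miR-223KO replicate 2) to 48.9% (miR-223KO replicate 3) of the member probes were flagged on an array.

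No complement or coagulation gene differed between the groups beyond the test. In limma with Benjamini-Hochberg adjustment over all 17782, 0 of 33 members passed at 0.05, and their adjusted p ran from 0.521 to 0.999. Over all tested 1 passed (0.00562%), the gene Ctse. Before adjustment 2 members had a p under 0.05 (6.06%), Fga and Klkb1, both lower, against 4.72% of all tested (2.42% lower, 2.29% higher). The groups did not overlap for 1 member, Fga (3.03%), against 2.74% of all tested (1.27% lower, 1.47% higher). These shares lie near the background, with so few members that 1 gene moves them by 3.03 percentage points. The median difference over the 33 was -0.10, with 23 lower and 10 higher, beside a median of -0.01 and 52% lower over all tested. That lean towards lower values depended on the scale: with median centring in place of loess, 8 of 33 lay lower, against 34.4% of all tested. Centring also moved the median of all tested by 0.10, and relative to that median 12 of 33 lay lower, against 21 of 33 as reported. The median SE was 0.25 for the members and 0.21 for all tested.

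**Figure D1:**
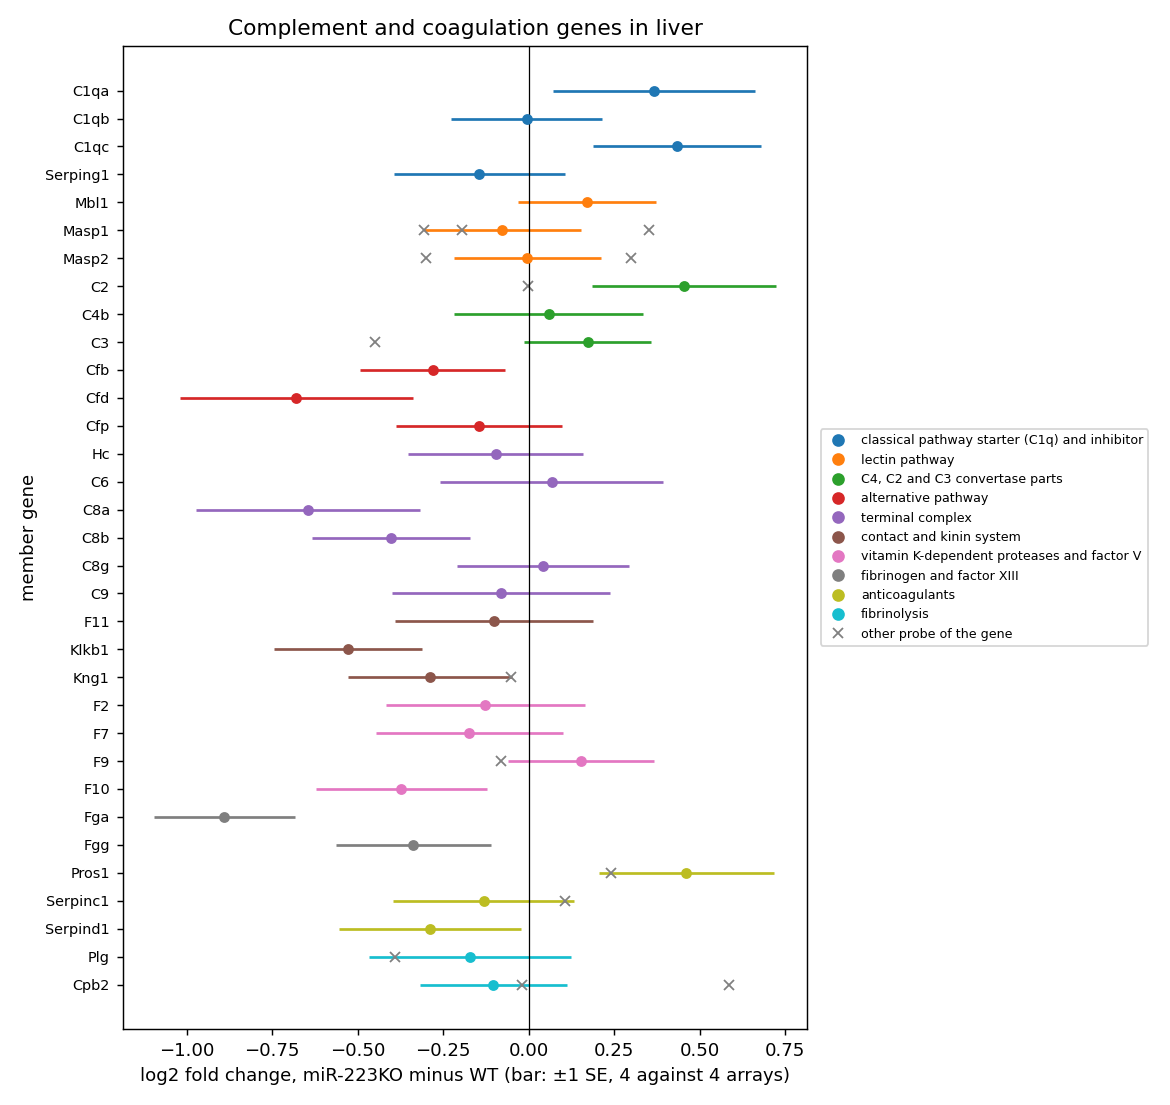
Difference between miR-223KO and WT liver (log2, x axis) for each of the 33 member genes (y axis), coloured by role; points are the brightest probe, bars ± 1 SE over 4 against 4 arrays, and crosses mark other probes of the gene. Fga lies farthest from 0 at -0.89, and C2 and Pros1 lie highest at 0.45 and 0.46, but no member passed the test over all genes.

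Of the 14 coagulation and fibrinolysis members 12 lay lower, with a median of -0.17, and of the 19 complement members 11 lay lower, with a median of -0.01, but with median centring the counts were 5 of 14 and 3 of 19. Relative to the median of all tested under centring they were 8 of 14 and 4 of 19. With Cy5 alone 10 of 14 coagulation members and 6 of 19 complement members lay lower. Whether the 2 sets differ was not tested. Whether fewer cells of a type or less RNA per cell lay behind any value cannot be told apart in whole tissue.

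Fga, the gene of the fibrinogen alpha chain, stood apart most. Its log2 ratio was 1.16, 0.83, 1.45 and 1.20 in WT replicates 1 to 4 and -0.08, 0.51, 0.54 and 0.10 in miR-223KO replicates 1 to 4. Every knockout array thus lay below every WT array, with WT replicate 2 and miR-223KO replicate 3 closest to each other. The means were 1.16 ± 0.26 and 0.27 ± 0.31 (SD, n = 4 each), a difference of -0.89 (SE 0.21) or 1.85-fold. It did not pass over all genes (adjusted p = 0.521, unadjusted p = 0.000586 in limma). The difference was -0.78 within slide 1 and -1.004 within slide 2. The larger share of it lay in the reference channel as normalised, at 0.55 higher in Cy3 and -0.34 in Cy5. With Cy5 alone, quantile normalised, it was -0.28 (unadjusted p = 0.284), and with median centring -0.52 (unadjusted p = 0.136). With outlier-flagged spots left out it was -0.82 over 3 arrays of each group, and the authors' deposited table gives -0.80. The probe reads this stretch, shown because the 1 member whose groups did not overlap rests on it.
Fga probe A_51_P193813: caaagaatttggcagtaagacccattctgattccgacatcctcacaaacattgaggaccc

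Fibrinogen is built of 3 chains, and their genes lie next to each other on chromosome 3. Fgg, the gamma chain, read 0.39, -0.19, 0.43 and 0.35 in WT and -0.13, 0.02, 0.36 and -0.61 in miR-223KO. The groups overlapped, with WT replicate 2 among the low values and miR-223KO replicate 3 among the high ones, and the difference was -0.34 (SE 0.23, unadjusted p = 0.156). Fgb, the beta chain, is absent from the authors' table and was read from a probe whose spot was flagged on 3 arrays of WT and all 4 of miR-223KO. It read 0.73, 0.03, 0.49 and 0.94 in WT and 0.14, 0.52, 0.20 and 0.35 in miR-223KO, a difference of -0.24 (SE 0.21, unadjusted p = 0.264). All 3 chains thus lay lower as reported, but only Fga without overlap, and with median centring Fgb turned to 0.12 and Fgg stood at -0.03. For Fgg the difference lay mainly in Cy3 (0.29 higher, with -0.04 in Cy5), and for Fgb it was -0.15 in Cy5 and 0.10 in Cy3.

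**Figure D2:**
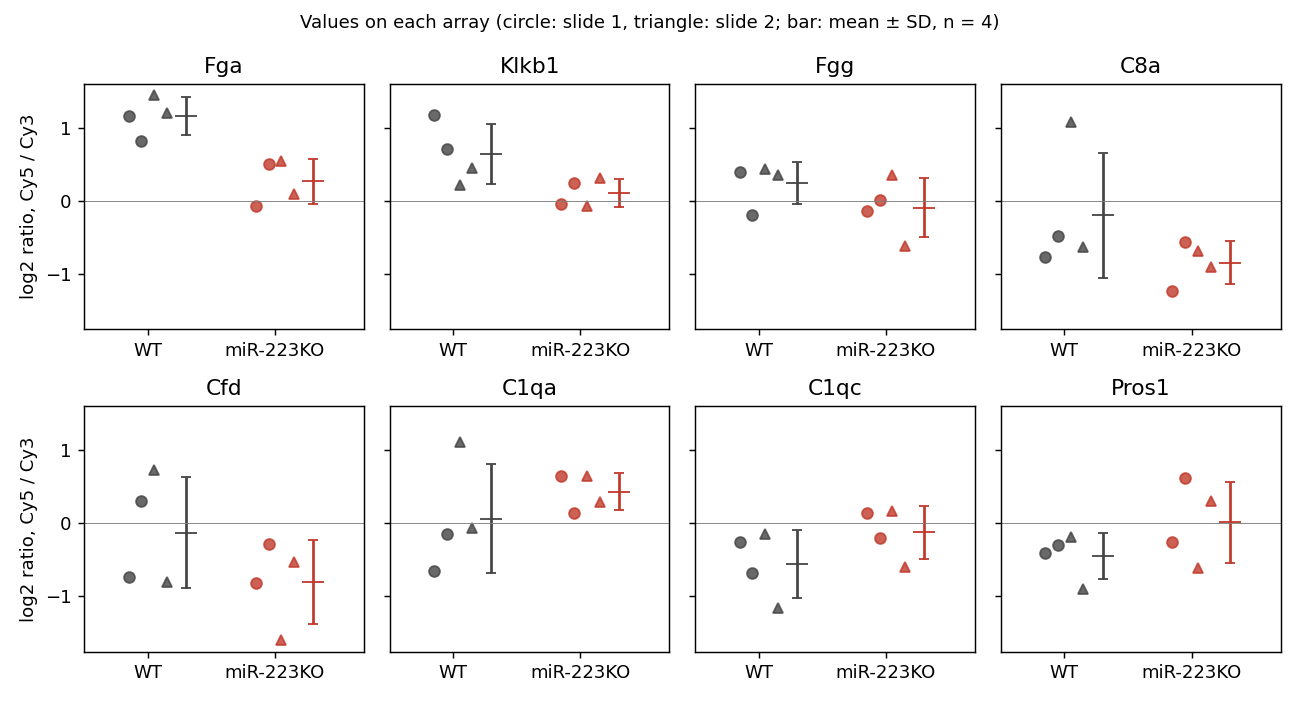
Log2 ratio of Cy5 over Cy3 (y axis) on each of the 8 arrays for 8 members, WT in grey and miR-223KO in red; circles are slide 1, triangles slide 2, and bars the mean ± SD (n = 4). Only for Fga do the groups stay apart, at 0.83 or more in WT and 0.54 or less in miR-223KO, while for C8a and C1qa WT replicate 3 lies far above the other WT arrays.

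The contact and kinin system starts coagulation on charged surfaces and releases bradykinin, and its 3 members all lay lower as reported, but 1 of 3 with median centring. Klkb1 encodes plasma prekallikrein, the protease that frees bradykinin from kininogen. It read 1.18, 0.71, 0.22 and 0.45 in WT and -0.04, 0.24, -0.06 and 0.31 in miR-223KO. WT replicate 3 lay below the 2 highest knockout arrays, so the groups overlapped at that array. The means were 0.64 ± 0.41 and 0.11 ± 0.19 (SD, n = 4 each), a difference of -0.53 (SE 0.22), which did not pass (unadjusted p = 0.0276, adjusted p = 0.977 in limma). The difference lay in Cy5 (-0.53) with 0.00 in Cy3, was -0.84 on slide 1 and -0.21 on slide 2, and 3 of the 4 WT spots carried an outlier flag. The probe is shown as that of the second member below an unadjusted p of 0.05.
Klkb1 probe A_51_P224801: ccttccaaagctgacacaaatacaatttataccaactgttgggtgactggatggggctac
Kng1, the gene of kininogen, read -0.10, -0.37, 0.33 and 0.57 in WT and 0.17, 0.08, -0.57 and -0.40 in miR-223KO. The knockout was higher on slide 1 (0.36) and lower on slide 2 (-0.93), which made -0.29 over both (unadjusted p = 0.245). This probe is absent from the authors' table and flagged on all 8 arrays, and the Kng1 probe of the table gave -0.05. F11, factor XI, stood at -0.10. With median centring F11 and Kng1 turned to 0.02 and 0.04 while Klkb1 stayed at -0.32, and relative to the median of all tested the 3 remained below it.

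Among the vitamin K-dependent proteases 3 of 4 lay lower (1 of 4 with median centring, all 4 in Cy5 alone), and none passed. Relative to the median of all tested under centring 2 of 4 lay lower. F10, factor X, at which the routes of coagulation meet, read 0.41, -0.39, -0.46 and 0.53 in WT and -0.28, -0.07, -0.29 and -0.76 in miR-223KO. WT split into 2 high and 2 low arrays and enclosed 3 of the 4 knockout values, with a difference of -0.37 (SE 0.25, unadjusted p = 0.155). F9, factor IX, whose loss causes haemophilia B, read -0.28, 0.14, 0.47 and 0.57 in WT and 0.13, 0.51, 0.29 and 0.60 in miR-223KO. Only WT replicate 1 lay outside the knockout range, and the difference was 0.15 (SE 0.21), with -0.08 at its other probe. F2, prothrombin, read -0.31, 0.10, 0.48 and 0.71 in WT and 0.16, 0.28, -0.73 and 0.76 in miR-223KO. The knockout arrays spanned the wider range and enclosed all WT values, and the difference of -0.13 (SE 0.29) was 0.33 on slide 1 and -0.58 on slide 2. F7, factor VII, stood at -0.17.

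Of the anticoagulants, Pros1 lay higher and both serpins lower as reported, the serpins not in Cy5 alone. Pros1 encodes protein S, the cofactor of activated protein C. It read -0.41, -0.30, -0.18 and -0.90 in WT and -0.26, 0.61, -0.60 and 0.30 in miR-223KO. Replicates 2 and 4 of the knockout stood above every WT array and the other 2 within the WT range. The difference was 0.46 (SE 0.26, unadjusted p = 0.0925), or 1.38-fold, with 0.53 and 0.39 within the slides, 0.38 in Cy5 and 0.24 at a second probe. It carried no flagged spot and stood higher under all 27 alternatives tried, from 0.26 to 0.67, without passing under any. Several of these left its estimate unchanged. Serpinc1, antithrombin, read 0.82, 0.37, -0.41 and 1.07 in WT and 0.44, 0.31, 0.42 and 0.16 in miR-223KO. The knockout values all lay inside the WT range, and the difference was -0.13 (SE 0.27), with 0.11 at its other probe. Serpind1, heparin cofactor II, read 0.77, 0.53, 0.43 and -0.13 in WT and 0.23, 0.48, -0.69 and 0.42 in miR-223KO. The groups overlapped, at -0.29 (SE 0.27), and in Cy5 alone the serpins stood at 0.02 and 0.10.

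Both fibrinolysis members lay lower as reported and higher with median centring. Plg, plasminogen, read 0.32, 0.46, -0.32 and 1.34 in WT and 0.41, 0.57, 0.45 and -0.31 in miR-223KO at a probe absent from the authors' table, a difference of -0.17 (SE 0.30). The WT arrays alone spanned more than 1 log2 unit. Its table probe gave -0.39, from -0.21, 0.15, 0.03 and 0.69 to -0.40, -0.04, 0.14 and -0.60. Cpb2 encodes TAFI, a carboxypeptidase that slows clot lysis, and read 0.37, 0.47, 0.02 and 0.46 in WT and 0.59, 0.53, -0.17 and -0.03 in miR-223KO. That brightest probe showed -0.10 (SE 0.21), with the knockout higher on slide 1 (0.14) and lower on slide 2 (-0.34). A second Cpb2 probe, A_51_P262699, read -0.28, -0.23, 0.02 and -0.66 in WT and 0.46, 0.47, -0.05 and 0.31 in miR-223KO. Here the knockout was higher by 0.58 (SE 0.20, unadjusted p = 0.0098, adjusted p = 0.984 with every probe tested on its own), by 0.72 and 0.45 within the slides, and the authors' deposited table gives 0.61. The 2 Cpb2 probes thus differ in direction, and which transcripts each reads was not tested. The remaining Cpb2 probe was not well above background on any array.

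C1q, the recognition molecule of the classical pathway, is built of 3 chains encoded side by side. C1qc read -0.25, -0.68, -0.14 and -1.16 in WT and 0.14, -0.20, 0.16 and -0.60 in miR-223KO. Replicates 1 and 3 of the knockout lay above every WT array, and the difference was 0.43 (SE 0.25, unadjusted p = 0.0975), at 0.44 and 0.43 within the slides. C1qa read -0.65, -0.14, 1.11 and -0.06 in WT and 0.64, 0.15, 0.64 and 0.29 in miR-223KO. All knockout arrays lay above 3 of the WT arrays and below WT replicate 3, which made 0.37 (SE 0.30, unadjusted p = 0.233). Without WT replicate 3 it was 0.72. C1qb read -0.32, 0.44, 0.54 and 0.08 in WT and 0.21, -0.01, 0.53 and -0.01 in miR-223KO. The groups lay over each other, and the difference was -0.01 (SE 0.22). So 2 of the 3 chains lay higher, none passed, and no spot of the 3 was flagged. In Cy5 alone they stood at 0.63, 0.20 and 0.68 for C1qa, C1qb and C1qc, all higher. Serping1, the C1 inhibitor, stood at -0.15.

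Markers of macrophages, the usual source of C1q, leaned the same way. Of 12 Kupffer cell and macrophage markers, all tested, 10 lay higher with a median of 0.22, and the mean of the list on an array was -0.38 to 0.45 in WT and -0.09 to 0.50 in miR-223KO. Csf1r, the receptor of a macrophage growth factor, stood at 0.54 (unadjusted p = 0.0186) without overlap of the groups, which held for 2.74% of all tested. The Kupffer cell marker Clec4f stood at 0.23, Marco and Cd163 lay lower at -0.04 and -0.14, and none of the 12 passed. The list's mean difference was 0.55 on slide 1 and 0.07 on slide 2. On the same slides C1qa stood at 0.79 and -0.05, C1qb at 0.04 and -0.05, and C1qc at 0.44 and 0.43. On slide 2 alone 6 of the 12 lay lower. Of 4 lipid-associated macrophage markers tested, 2 lay higher and 2 lower. Endothelial markers also leaned higher, 7 of 9, so the lean was not particular to macrophages. The part of macrophages in the C1q values was not tested. Vsig4, of the Kupffer cell and macrophage list, is also a complement receptor.

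The lectin pathway showed no lean that its probes shared. Mbl1, a mannose-binding lectin, read -0.05, -0.04, -0.40 and -0.28 in WT and 0.30, 0.12, -0.47 and -0.03 in miR-223KO. The slide 1 knockout arrays and replicate 4 lay above every WT array and replicate 3 below them all, with a difference of 0.17 (SE 0.20). Masp1, a protease that travels with the lectins, read -0.37, -0.77, 0.23 and 0.17 in WT and -0.19, -0.04, -0.46 and -0.36 in miR-223KO. The WT arrays differed by slide and the difference of -0.08 (SE 0.23) was 0.46 on slide 1 and -0.61 on slide 2. Its other probes well above background gave 0.35 and -0.31. Masp1 is known to give several proteins by splicing, and which of them each probe reads was not tested. Masp2, the second protease, stood at -0.00, with -0.30 and 0.30 at its other probes. The last of these, A_52_P569276, read 0.02, 0.25, 0.26 and 0.19 in WT and 0.33, 0.52, 0.45 and 0.62 in miR-223KO without overlap, but its difference lay in Cy3 (-0.40) and not in Cy5 (-0.10).

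C4, C2 and C3 form the convertases on which the pathways meet, and as reported all 3 genes stood above 0, while C3 was at -0.02 in the authors' deposited table. C3, the central and most abundant component, is covered by a probe printed in 10 copies. It read 0.21, -0.05, 0.32 and 0.18 in WT and 0.57, 0.52, 0.11 and 0.16 in miR-223KO. The slide 1 knockout arrays lay above every WT array and the slide 2 ones within their range, a difference of 0.17 (SE 0.19, unadjusted p = 0.371). A second C3 probe gave -0.45 (unadjusted p = 0.0979), 0.17 on slide 1 and -1.07 on slide 2, and 4 of its 8 spots were flagged. C2 read -1.20, -1.14, -1.03 and -0.27 in WT and -0.11, -0.79, 0.08 and -1.01 in miR-223KO. The knockout lay above 3 of the WT arrays and WT replicate 4 within the knockout range, with a difference of 0.45 (SE 0.27, unadjusted p = 0.112). The second C2 probe gave -0.00, so the higher values rest on 1 probe, and with flagged spots left out, which passes the gene to that probe, C2 stood at -0.19. C4b read -0.03, 0.06, 0.61 and -0.27 in WT and -0.28, 0.06, 1.02 and -0.21 in miR-223KO. Each group had 1 high array, replicate 3, with the others at 0.06 or below, and the difference was 0.06 (SE 0.28). C4b has a near-identical copy, C4a, whose own probe stood at -0.09, and signal from 1 gene on the probe of the other cannot be told apart.

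The alternative pathway members all lay lower as reported (1 of 3 with median centring), and none passed. Cfd encodes factor D, the protease that activates factor B, and is a marker of fat cells. It read -0.73, 0.30, 0.73 and -0.80 in WT and -0.82, -0.28, -1.60 and -0.53 in miR-223KO. WT held 2 high and 2 low arrays, and miR-223KO replicate 3 was the lowest of all 8. The difference was -0.68 (SE 0.34, unadjusted p = 0.0645), or 1.60-fold, -0.33 on slide 1 and -1.03 on slide 2, and lay in Cy5 (-0.69). It stood lower under all 27 alternatives tried, from -1.03 to -0.33, though several of these left its estimate unchanged. Of 8 adipocyte markers 5 were tested, 3 lower and 2 higher, none past the test. Cidec stood at 0.79 (unadjusted p = 0.0194), Car3 at 0.38, Lipe at -0.10, Fabp4 at -0.22 and Adipoq at -0.05, the last well above background on 4 of 8 arrays. Plin1, Lep and Retn were not above background on enough arrays to be tested. The list's mean on an array was -0.16 to 0.26 in WT and 0.04 to 0.29 in miR-223KO, while its median difference was -0.05. Which cells of the whole liver gave these readings was not tested, nor was the list's part in Cfd. Cfb, factor B, read 0.76, 0.80, 0.71 and 0.66 in WT and 0.55, 0.99, -0.03 and 0.30 in miR-223KO. The WT arrays were alike, and 3 knockout arrays lay below them and 1 above, which gave -0.28 (SE 0.21, unadjusted p = 0.205). Cfp, properdin, which steadies the convertase and is made by leukocytes, stood at -0.15, with -0.80 in Cy5 and -0.65 in Cy3. With median centring Cfb and Cfp turned to 0.02 and 0.10, while Cfd stayed at -0.46. Relative to the median of all tested under centring 2 of 3 lay lower, Cfb and Cfd.

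In the terminal complex, the membrane pore, 2 of the 3 chains of C8 lay lower, and as reported the other members stood between -0.10 and 0.07. C8a read -0.77, -0.48, 1.08 and -0.63 in WT and -1.23, -0.57, -0.68 and -0.90 in miR-223KO. WT replicate 3 alone made most of the difference of -0.65 (SE 0.33, unadjusted p = 0.0681), and of the other WT arrays 2 lay among the knockout arrays and 1 just above them. Without WT replicate 3 the difference was -0.22. C8b read 0.05, -0.04, -0.21 and -0.09 in WT and -0.88, 0.23, -0.41 and -0.83 in miR-223KO. There 3 knockout arrays lay below every WT array and replicate 2 above them, with -0.40 (SE 0.23, unadjusted p = 0.103) and -0.33 and -0.47 within the slides. C8g, the third chain, stood at 0.04. Hc encodes C5, from which the pore starts, and read 0.39, -0.29, 0.39 and -0.76 in WT and -0.27, -0.11, 0.18 and -0.46 in miR-223KO. The knockout arrays lay inside the WT range at -0.10 (SE 0.25). C6 stood at 0.07, from -0.59 on slide 1 and 0.72 on slide 2. C9 stood at -0.08, and at -0.53 (unadjusted p = 0.0586) with flagged spots left out. As reported 4 of the 6 lay lower and with median centring 2, C8a and C8b, which also lay lower in Cy5 alone.

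The channel in which a member differed split the largest values. For Cfd, Klkb1 and F10 the knockout difference lay in the liver channel, at -0.69, -0.53 and -0.37 in Cy5 with -0.01, 0.00 and 0.00 in Cy3. For Fga, C8a and C8b a good part lay in the reference channel, at 0.55, 0.34 and 0.24 in Cy3. C1qa, C1qc and C2 were higher in both, by 0.67, 0.66 and 0.60 in Cy5 and by 0.30, 0.23 and 0.15 in Cy3. The labels name the same reference RNA for every array, and whether it was the same was not tested. How a ratio parts between the channels depends on the Aquantile step used to make arrays comparable.

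**Figure D3:**
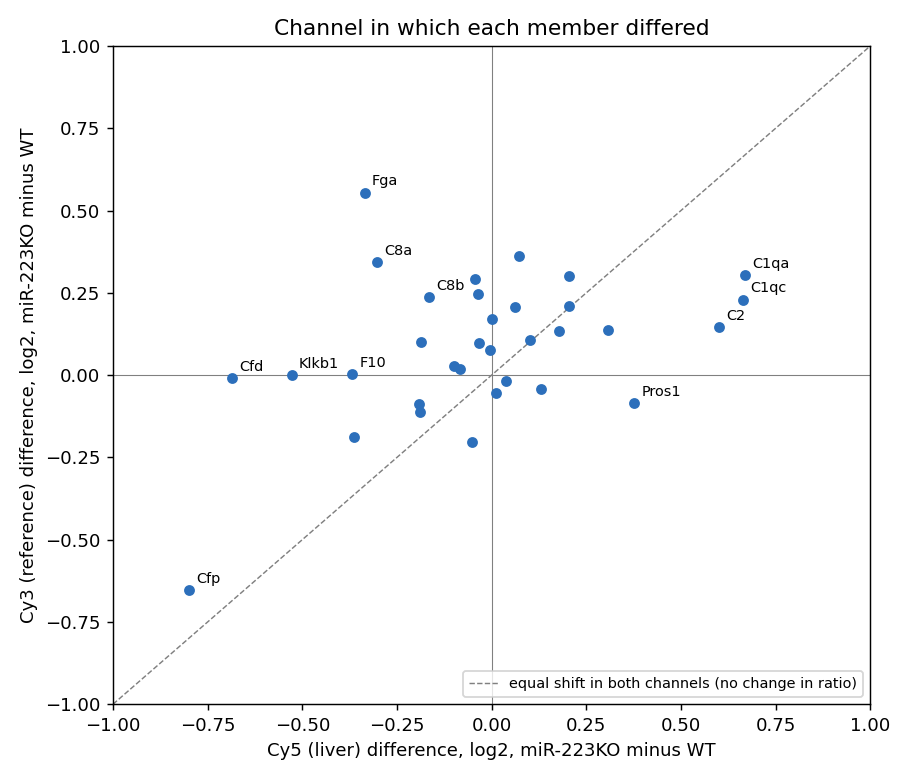
Difference between miR-223KO and WT (log2) in Cy5, the liver RNA (x axis), and in Cy3, the common reference (y axis), for the 33 members; on the dashed line both channels shift alike and the ratio does not differ. Fga lies at -0.34 in Cy5 and 0.55 in Cy3, while Cfd, Klkb1 and F10 lie on the horizontal axis.

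Listed genes had 10 scanner probes that are absent from the authors' table, found by RefSeq accession, and all 10 had outlier flags. They are the probes of the 8 listed genes without a symbol there and the brightest probes of the members Kng1 and Plg. The 8 genes are no members by the rule. All 8 were tested, 5 lower and 3 higher with a median of -0.08, and none passed. With median centring 1 of the 8 lay lower. Relative to the median of all tested 2 of the 8 lay below it under centring, against 5 as reported. Serpinf2 encodes alpha-2-antiplasmin, the inhibitor of plasmin, and read 0.15, -0.17, 0.28 and -0.01 in WT and -0.20, -0.42, -0.64 and -0.64 in miR-223KO. The groups did not overlap, though WT replicate 2 and miR-223KO replicate 1 nearly touched. The difference was -0.54 (SE 0.19, unadjusted p = 0.0113, adjusted p = 0.977), -0.30 and -0.77 within the slides and -0.52 in Cy5. With median centring it was -0.25 (unadjusted p = 0.493). Its spot was flagged on 3 arrays of WT and all 4 of miR-223KO. The others were F13b, a subunit of the fibrin-linking factor XIII (0.42), F5 (0.35), F12 (0.12), Mbl2 (-0.06), Proc (-0.09) and Cfi (-0.25), beside Fgb.

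Other genes of both systems were counted from 7 further lists of 75 genes, of which 61 were tested. They split 33 higher and 28 lower with a median of 0.04, and 0 passed. An unadjusted p under 0.05 was found for 2 of the 61, against 4.72% of all tested, and the groups did not overlap for 2, Anxa2 and Hrg, against 2.74% of all tested. With median centring 10 of 61 lay lower, against 34.4% of all tested. Relative to the median of all tested 20 of 61 lay below it under centring, against 25 of 61 as reported. Anxa2, annexin A2, a cell-surface receptor for plasminogen and its activator, stood highest. It read -1.37, -0.57, -0.56 and -0.56 in WT and 0.38, -0.18, 0.12 and -0.01 in miR-223KO. The groups did not overlap, with a difference of 0.84 (SE 0.22, unadjusted p = 0.0016, adjusted p = 0.864), 0.97 in Cy5 and 1.07 and 0.61 within the slides. Susd4, an inhibitor of complement activation, read 0.69, 0.45, -0.13 and -0.57 in WT and -0.67, -0.53, -0.71 and -1.44 in miR-223KO. Only WT replicate 4 lay among the knockout arrays, and the difference was -0.94 (SE 0.27, unadjusted p = 0.00354, adjusted p = 0.977).

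By list, the complement receptors and regulators had 12 of 18 tested genes higher, the C1 and lectin pathway genes 5 of 11, the coagulation factors and cofactors 4 of 9, the coagulation inhibitors 2 of 5, the fibrinolysis genes 3 of 5 and the thrombin and kinin receptors 2 of 3. After Susd4 the receptor list was led by Vtn, vitronectin (-0.41, unadjusted p = 0.108). The C1 and lectin genes were led by C1ra, a protease of the C1 complex (0.44, unadjusted p = 0.0656), and Colec11, a collectin (0.41, unadjusted p = 0.0731). Among the coagulation factors Hrg, histidine-rich glycoprotein, stood at 0.27 without overlap of the groups (unadjusted p = 0.132) and F3, tissue factor, at -0.29. Thbd, thrombomodulin, stood at 0.25 and Tfpi, the tissue factor pathway inhibitor, at -0.24. Thbd was well above background on 1 WT array and 4 miR-223KO arrays, and F3 on 2 and 3, so both lay near the floor. S100a10, the partner of annexin A2, stood at -0.18. F2r, a thrombin receptor, stood at 0.44 and Bdkrb1 at 0.02. Genes of regulators known to act on these genes in liver, 10 of 11 tested, split 5 and 5 with a median of 0.03, led by Il1b (0.21) and Il6st (0.24).

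Hepatocyte markers, which share their cell of origin with most members, also leaned lower as reported. That lean was absent with median centring, in Cy5 alone and on slide 1 alone. Of 12 markers 10 were tested and 7 lay lower with a median of -0.18, and the list's mean on an array was 0.54 to 1.11 in WT and 0.36 to 0.90 in miR-223KO. Alb, albumin, stood at -0.66 (unadjusted p = 0.0196, adjusted p = 0.977), -0.33 of it in Cy5 and 0.33 higher in Cy3. With median centring 2 of 10 and in Cy5 alone 3 of 10 lay lower. Relative to the median of all tested under centring 4 of 10 did. Within slide 1 it was 4 of 10 and within slide 2 it was 8 of 10, with a mean difference of 0.06 and -0.41. The part of hepatocyte RNA in the members' values was not tested.

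The count of members lying lower depended on the processing. As reported 23 of 33 lay lower, 24 did with the authors' table, 22 with a lower normexp offset, 16 in Cy5 alone and 8 with median centring. With flagged spots left out 20 members could be tested, and 10 lay lower. Within slide 1 it was 19 and within slide 2 it was 20, but only 14 genes had the same sign in both, 10 lower and 4 higher. None of the 27 alternatives called a member.

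**Figure D4:**
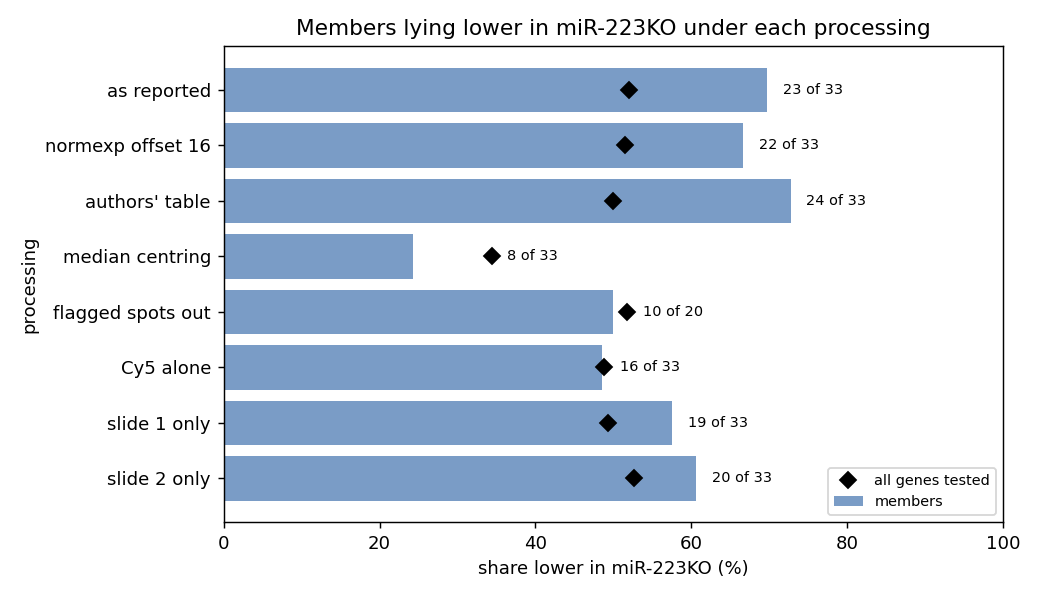
Share of the members tested that lay lower in miR-223KO (%, bars, with their counts) under 8 ways of processing (y axis), with the share of all tested under the same setting as a diamond. The members run from 8 of 33 with median centring to 24 of 33 with the authors' table.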

How the data were processed

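Liver RNA of 4 WT and 4 miR-223KO samples was read on Agilent 2-colour arrays of design 014868. The software was Agilent Feature Extraction 12.0.3.1 (protocol GE2_1200_Jun14), per the file headers and the submitters' processing notes. The deposited files hold spot and background intensity, median signals used here, and a LogRatio, the log10 of Cy5 over Cy3, per the file headers. In the authors' table (40646 probes) stand log2 ratios made from the processed signals. It lacks 620 probes of the scanner files, all of which had an outlier flag.

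Background was subtracted by normexp (offset 50) and ratios normalised by loess within array, with flagged spots at weight 0 but kept as values, and spots of a probe averaged, in limma 3.58.1 under R 4.3.3. Probes had to be well above background in Cy5 on 4 or more of 8 arrays. The comparison used lmFit and eBayes (two-sided), and p-values were adjusted by Benjamini-Hochberg over all 17782 with a threshold of 0.05. The procedure was tested on simulated data without slide or flag effects. The planted changes were larger than any member's difference over all arrays, so smaller ones were not covered. Probes were named by RefSeq accession first, and by the symbol of the authors' table where no accession matched. Members and lists were chosen with earlier results of these data known. Named with values in every sample were, per role, the 2 members with the smallest p, and a fixed set (C1qa, C1qb, C1qc, C3, C4b, Hc, Cfd, F2, Fga, Serpinc1 and Plg). Of the other lists the 2 genes per list with the smallest p were named. Serpinf2, Fgb, Hrg, the markers and second probes were named after their values were seen. Replicate numbers did not pair the samples. Alternatives covered flags, offset, background, normalisation, filter, probe choice, weights, slide and each array left out.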

Additional observations from a re-analysis of the deposited data

Results flagged for a closer look

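Among the 25 members given by sample, the WT and the miR-223KO arrays of each were searched for 1 array far from its group, by Dixon's test at its usual critical value. It marked 2 of 50 groups, and chance marks about 1 in 20. For C8a, WT replicate 3 read 1.08, while the other WT arrays lay between -0.77 and -0.48. For Fgg, WT replicate 2 read -0.19, while the other WT arrays lay between 0.35 and 0.43.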

How the results depend on the processing

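The number of genes called over all genes, 1 as reported, was 2 with flagged spots left out, 3 with a normexp offset of 16, 3 with probes well above background on all 8 arrays, 2 with array quality weights, 3 with slide as a block, 3 with the replicate block, 2 with the table's probes alone, and 0 on slide 2 alone, where 1413 had an unadjusted p under 0.05. With 1 array left out it was 1 to 4, namely 4 without WT replicate 3, 2 without WT replicate 4 and 3 with miR-223KO replicate 2 left out. Members called were 0 under all 27 alternatives, the lowest adjusted p being 0.447 (Fga, slide as a block). The members' median of -0.10 was 0.15 with median centring, and -0.16 to -0.05 with 1 array left out. Replicate numbers did not pair the samples (correlations of deviations -0.03 to 0.06, and 1 of 8 samples closest to its own number), and the replicate block called no member. Of 663 values of the 25 named members, 650 stayed within 1 SD of the reported value, 13 moved further and 0 passed the test. The SD is that gene's spread between arrays within a group, a wide margin. F2 went from -0.13 to 0.33 on slide 1 without counting as moved. Over the alternatives 10 of the 25 kept their sign (C1qc, C8a, C8b, Cfd, F10, Fga, Fgg, Klkb1, Mbl1 and Pros1). Several alternatives, such as Aquantile, the filters on dim probes and the slide and replicate blocks, left the estimates as they were. These change only the p-values, so they do not count as checks of sign or size. Cy5 alone and the table's probes alone were chosen after seeing the data. Array number limits the precision, and most members carry flagged spots.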

Other observations

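The Cy3 reference, labelled as mixed tissue, was checked with probes of genes known from other organs, chosen after the liver genes were seen to be bright in it. Cy3 was well above background on 0 of 8 arrays for the kidney gene Umod and on 2 of 8 for the lung gene Sftpc. Of the brain genes, the 3 probes of Mbp reached 0, 3 and 3 of 8 arrays, those of Snap25 3, 6 and 3 of 8, and those of Gfap 0, 1 and 8 of 8. In Cy5, the liver channel, the same probes reached 0, 1 and 3 for Mbp, 4, 3 and 0 for Snap25 and 0, 0 and 6 for Gfap. Umod reached 0 and Sftpc 1 there.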
